A study of Mus musculus with 8 samples.

Results

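The 5 genes described here belong to the cubilin and megalin uptake system of absorptive epithelia, read across a calcineurin knockdown in mouse embryonic stem cells. They are Cubn (cubilin), Amn (amnionless), Lrp2 (megalin), Dab2 and Lrpap1. Every probe other than control probes whose transcript accession belongs to one of these symbols was taken, which gave 7 of 39429 probes and 5 of the 32530 genes on the array. Cubn and Lrpap1 each had 2 probes, and the other members had 1. The R1 line of mouse embryonic stem cells, which is pluripotent, was used. Cells were grown as embryoid bodies, aggregates that begin to form the early embryonic layers, for 48 h, and RNA was taken 48 h after transfection in every group. Control siRNA was given to 3 samples, CnAb1 siRNA 1 to 3 and CnAb1 siRNA 2 to 2, with 1 array each. CnAb1 is a variant form of calcineurin Aβ, a phosphatase subunit encoded by Ppp3cb. All 3 groups therefore share the cell line, the transfection and the embryoid body culture. An siRNA lowers a transcript without removing the gene, and no label states whether replicates came from separate cultures. The p-values below therefore reflect how these samples scattered and nothing wider, and that scatter may be technical.

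Cubilin is a large extracellular receptor with no membrane span of its own. Amnionless is the small transmembrane partner that carries it to the apical surface and holds it there, and the pair is known as the cubam receptor. Megalin is a transmembrane receptor of the LDL receptor family that binds many of the same ligands and is internalised with cubam. Dab2 is an endocytic adaptor that links the tails of such receptors to clathrin, and Lrpap1 (RAP) is a chaperone of the endoplasmic reticulum that escorts LDL receptor family members. The system takes up vitamin-binding and lipid-carrying proteins in the kidney proximal tubule, and in the early mouse embryo it is a feature of the visceral endoderm, the absorptive outer layer that feeds the epiblast.

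The bases just before the transcription start are shown for the cubam pair, whose signals ran closest together on the arrays, and for Lrp2, whose signal did not separate the groups. They are the 250 bases upstream of the RefSeq start in build GRCm38.p6, 5′ to 3′ on the gene's strand, and capitals mark the single match to the motifs searched. The Cubn window is chr2:13491877-13492126 on the minus strand, the Amn window chr12:111270846-111271095 on the plus strand and the Lrp2 window chr2:69586030-69586279 on the minus strand.
Cubn: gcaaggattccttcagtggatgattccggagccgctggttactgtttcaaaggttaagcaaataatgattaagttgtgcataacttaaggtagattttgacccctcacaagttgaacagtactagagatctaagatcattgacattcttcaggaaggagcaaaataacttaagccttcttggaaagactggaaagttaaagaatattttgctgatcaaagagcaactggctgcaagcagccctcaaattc
Amn: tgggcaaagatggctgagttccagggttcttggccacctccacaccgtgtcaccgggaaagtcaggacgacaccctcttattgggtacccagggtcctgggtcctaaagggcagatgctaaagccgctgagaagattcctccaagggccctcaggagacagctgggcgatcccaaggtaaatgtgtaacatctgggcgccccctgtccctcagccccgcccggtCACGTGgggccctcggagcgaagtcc
Lrp2: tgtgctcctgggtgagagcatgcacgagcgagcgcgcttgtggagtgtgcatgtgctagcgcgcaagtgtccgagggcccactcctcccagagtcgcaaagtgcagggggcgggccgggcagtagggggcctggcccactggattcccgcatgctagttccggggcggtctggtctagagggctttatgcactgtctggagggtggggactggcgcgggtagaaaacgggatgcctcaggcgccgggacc
The windows differ in composition. The Cubn window had a GC content of 39.6% and 2 CpG dinucleotides, the Amn window 61.2% and 11, and the Lrp2 window 66.4% and 18. The median of the 32851 upstream windows in the table was 52.4% GC and 6 CpG. Motifs were searched on both strands as exact letters, namely the GATA core GATAA, an HNF1 half-site GTTAAT, the forkhead core TGTTTA, the SOX core ACAAT and the E-box CACGTG. The Amn window held 1 E-box, 26 bases before the start, as 6.02% of all windows held at least 1. Cubn and Lrp2 held none of the 5 motifs. The other members had 3 windows. Lrpap1 and the upstream start of Dab2 each had 1 GATA core, which occurs in 22.6% of windows. The downstream start of Dab2 had an HNF1 half-site and an overlapping forkhead core, found in 6.43% and 12.03% of windows. These matches describe letters in short windows only.

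The arrays were of 1 colour, and between 68.0% and 75.1% of the gene spots on each were well above background. All 7 member probes were well above background on all 8 arrays. The 8 arrays lay on 3 slides, with replicate 1 of each group on slide 1, and the first principal component, with 42.3% of the variance, separated the slide 1 arrays from the rest. Position on the slide followed the group (1 for Control, 2 for siRNA 1, 3 for siRNA 2), so the 2 cannot be told apart. The targeted gene was checked through its only probe, and whether that probe reads the CnAb1 variant is not known here. On the log2 scale used below, Ppp3cb averaged 0.63 ± 0.11 over the Control arrays (SD, n = 3), 0.39 ± 0.21 over siRNA 1 (SD, n = 3) and 0.52 ± 0.14 over siRNA 2 (SD, n = 2). Its limma difference was -0.24 for siRNA 1 and -0.11 for siRNA 2, and neither was called. All 6 core pluripotency genes examined, Pou5f1 and Sox2 among them, were well above background on all 8 arrays and both are defining genes of such cells.

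Member levels are given as log2 relative signal, the log2 ratio of a probe's processed signal to the 75th percentile of its array. A value of 0 is the 75th percentile, and 1 unit is a doubling. Levels are comparable for 1 probe between arrays and are not set against each other between genes.

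Cubn had the widest separation between groups. Its log2 relative signal was 1.22, 2.14 and 2.41 in Control 1, 2 and 3, 1.30, 1.83 and 1.37 in siRNA 1 replicates 1, 2 and 3, and 0.68 and 0.69 in siRNA 2 replicates 1 and 2. Both siRNA 2 arrays lay below all 6 other arrays, while the siRNA 1 arrays lay inside the Control range. Control arrays averaged 1.92 ± 0.62 (SD, n = 3), siRNA 1 arrays 1.503 ± 0.289 (SD, n = 3) and siRNA 2 arrays 0.68 ± 0.0083 (SD, n = 2). The Control arrays alone spanned 2.28-fold, so that the reference was itself spread widely. The second Cubn probe, which reads the same transcript at a dimmer signal, put the arrays in nearly the same order, with a Pearson r of 0.988 and a Spearman rho of 0.976 over the 8 arrays. By that probe siRNA 2 differed from Control by -1.20 on the log2 scale and siRNA 1 by -0.40.

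Amn, the membrane anchor of cubilin, followed the same order. Its log2 relative signal was 0.14, 0.68 and 1.13 in the Control arrays, 0.22, 0.83 and 0.36 in the siRNA 1 arrays, and -0.32 and -0.38 in the siRNA 2 arrays. Again both siRNA 2 arrays were below the other 6, and all 3 siRNA 1 arrays were within the Control range. Control arrays averaged 0.65 ± 0.50 (SD, n = 3), siRNA 1 arrays 0.47 ± 0.32 (SD, n = 3) and siRNA 2 arrays -0.35 ± 0.044 (SD, n = 2). Among the Control arrays, Control 1 was the lowest and Control 3 the highest, as they were for each of the 5 members.

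Lrp2, the megalin receptor, did not separate the groups. It stood at 2.22, 2.75 and 2.85 in the Control arrays, 2.56, 2.51 and 2.07 in the siRNA 1 arrays and 2.32 and 2.36 in the siRNA 2 arrays. The siRNA 2 arrays lay above Control 1 and above siRNA 1 replicate 3, and 1 siRNA 1 array was the lowest of all 8. Control arrays averaged 2.605 ± 0.339 (SD, n = 3), siRNA 1 arrays 2.38 ± 0.27 (SD, n = 3) and siRNA 2 arrays 2.34 ± 0.026 (SD, n = 2).

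Dab2, the clathrin adaptor, was uneven under siRNA 1. Its log2 relative signal was -1.69, -1.13 and -1.09 in the Control arrays, -1.69, -0.76 and -1.73 in the siRNA 1 arrays and -1.71 and -2.05 in the siRNA 2 arrays. The siRNA 2 arrays lay below the Control arrays, replicate 1 of siRNA 2 by only a narrow margin, and they overlapped the siRNA 1 arrays. The highest value of all was siRNA 1 replicate 2. Control arrays averaged -1.30 ± 0.34 (SD, n = 3), siRNA 1 arrays -1.39 ± 0.55 (SD, n = 3) and siRNA 2 arrays -1.88 ± 0.24 (SD, n = 2).

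Lrpap1, the receptor chaperone, had the tightest Control values. It stood at 1.69, 1.89 and 2.08 in the Control arrays, 1.99, 1.89 and 1.62 in the siRNA 1 arrays and 1.59 and 1.46 in the siRNA 2 arrays. Both siRNA 2 arrays were below the other 6, by less than for Cubn and Amn. Control arrays averaged 1.89 ± 0.19 (SD, n = 3), siRNA 1 arrays 1.83 ± 0.19 (SD, n = 3) and siRNA 2 arrays 1.53 ± 0.087 (SD, n = 2). The second Lrpap1 probe had a Pearson r of 0.982 and a rho of 0.952 with the first over the 8 arrays, and a siRNA 2 difference from Control of -0.52 on the log2 scale. By that probe siRNA 1 replicate 3 (0.88) lay between the siRNA 2 arrays (0.91 and 0.70), so that siRNA 2 was below Control but not below siRNA 1.

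**Figure D1:**
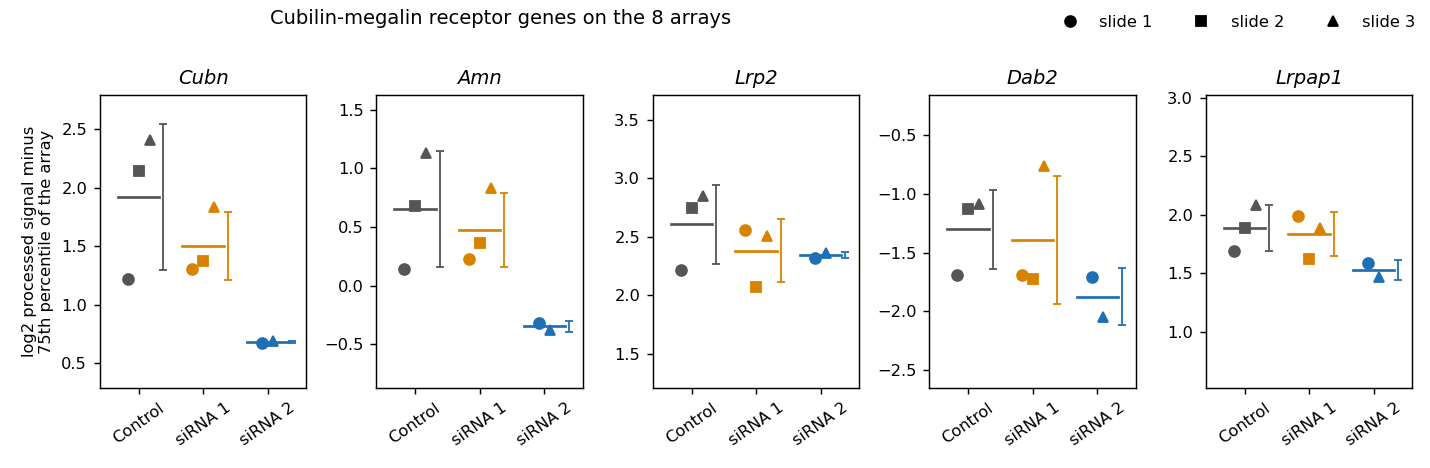
Log2 relative signal (scaled to the 75th percentile within each array, vertical axis) of each member on each array, by group, with markers for the slide, a line at the group mean and a bar of 1 SD; each panel spans the same number of log2 units. The siRNA 2 arrays of Cubn (0.68 and 0.69) and Amn (-0.32 and -0.38) lie below the other 6 arrays, and those of Lrp2 (2.32 and 2.36) do not.

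The comparison of siRNA 2 with Control asked how these genes stood under the second siRNA, with 2 arrays against 3. All 5 members were lower in mean, where 50.2% of the 22422 genes tested were. Cubn differed by -1.24 ± 0.34 on the log2 scale (SE, n = 2 and 3), or 2.36-fold lower, with a 95% interval from -2.04 to -0.43. Amn differed by -1.003 ± 0.297 (SE), or 2.00-fold lower, with an interval from -1.70 to -0.31. The differences were smaller for Dab2 at -0.58 ± 0.33 (SE), Lrpap1 at -0.36 ± 0.15 (SE) and Lrp2 at -0.26 ± 0.22 (SE). For Lrp2 the 95% interval ran from -0.79 to 0.26, which takes in values from 1.73-fold lower to 1.20-fold higher.

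None of the 5 passed limma's Benjamini-Hochberg threshold of 0.05 over all genes, where 0% of genes were called. The adjusted p was 0.9998 for each of them. The unadjusted p was 0.00820 for Cubn and 0.0114 for Amn, both lower, in limma's fit across all genes, and 1.97% of genes were lower and 1.38% higher at an unadjusted p under 0.05. It was 0.0513 for Lrpap1, 0.126 for Dab2 and 0.272 for Lrp2. In 4 of the 5 members every siRNA 2 array lay below every Control array, Lrp2 being the exception, against 8.19% of all genes. Only 37 of the 22422 genes had a lower siRNA 2 difference than Cubn and 76 a lower one than Amn, while 2319 were lower than Lrp2. In total RNA, fewer cells of a type and less RNA per cell cannot be told apart.

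The siRNA 1 comparison took 3 arrays against 3 and showed small differences with wide intervals. All 5 members were again lower in mean, against 41.8% of genes, and the comparison shares its Control arrays with that of siRNA 2. Cubn differed by -0.42 ± 0.30 on the log2 scale (SE, n = 3 and 3), with a 95% interval from -1.14 to 0.30. Lrp2 stood at -0.23, Amn at -0.18, Dab2 at -0.09 and Lrpap1 at -0.05. In 0 of the 5 members did the siRNA 1 arrays lie wholly below Control, against 2.50% of genes, and 0 were called by limma, as were 0% of genes, with unadjusted p from 0.213 to 0.768. At an unadjusted p under 0.05, 0.901% of genes were lower and 2.6% higher with siRNA 1. These values rested on single arrays. Without Control replicate 3 the Cubn difference was -0.18 and that of Amn turned to 0.060, and Dab2 and Lrpap1 turned to 0.017 and 0.045.

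With the mean of both siRNAs set against Control, the log2 difference was -0.83 ± 0.27 for Cubn (SE, n = 5 and 3), 1.77-fold lower, and -0.59 ± 0.24 for Amn (SE), 1.51-fold lower. Dab2 stood at -0.33, Lrp2 at -0.25 and Lrpap1 at -0.21. All 5 lay below 0, as did 47.1% of genes, and limma called 0 of them, with 0% of all genes called and an adjusted p of 0.9999. The siRNA arrays were wholly below the Control arrays for 0 of the 5, against 1.01% of genes. At an unadjusted p under 0.05 in that fit, 2 of the 5 were lower, Cubn at 0.0193 and Amn at 0.0417, against 1.32% of genes lower and 2.27% higher. Without Control replicate 3 neither was under 0.05 in limma's fit, with Cubn at -0.59 (unadjusted p = 0.0740) and Amn at -0.35 (unadjusted p = 0.154), and Lrp2 and Lrpap1 stood at -0.12 and -0.11. This mean is carried mostly by siRNA 2 for Cubn and Amn, and about equally by both siRNAs for Lrp2.

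Direct comparison of the siRNAs, which target the same transcript, also placed the cubam pair lower under siRNA 2. Amn differed by -0.82 ± 0.30 on the log2 scale (SE, n = 2 and 3), with a 95% interval from -1.52 to -0.13, and Cubn by -0.82 ± 0.34 (SE), with an interval from -1.62 to -0.02. Dab2 stood at -0.49, which was -0.17 without siRNA 1 replicate 2 and -0.31 without siRNA 2 replicate 2, and Lrpap1 at -0.31. Lrp2 differed by -0.039, with an interval from -0.56 to 0.49, and that sign turned under median scaling (0.038). All 5 were below 0, as were 57.6% of genes. None was called by limma (adjusted p = 0.99996), and 0% of genes were. At an unadjusted p under 0.05, 2 of the 5 were lower, Amn at 0.0269 and Cubn at 0.0466, against 2.55% of genes lower and 0.816% higher. For Cubn, Amn and Lrpap1, 3 of the 5, both siRNA 2 arrays lay below every siRNA 1 array, against 11.9% of genes. These same 3 were below all 6 other arrays, against 3.88% of genes. For Lrpap1 neither held by its second probe, where siRNA 1 replicate 3 (0.88) lay between the siRNA 2 arrays (0.91 and 0.70).

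**Figure D2:**
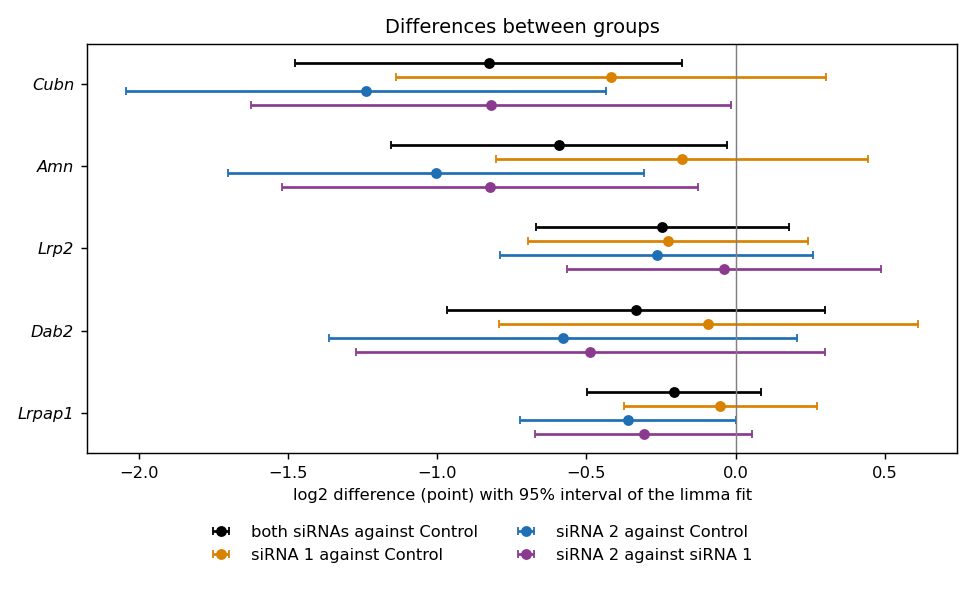
Log2 difference of each member in 4 comparisons (points) with its 95% interval from limma's fit over all arrays (bars), the vertical line marking no difference. Each gene is shown by its probe with the highest mean. The siRNA 2 intervals of Cubn (-2.04 to -0.43) and Amn (-1.70 to -0.31) lie below 0 before adjustment over all genes. By these probes the intervals of Lrp2, Dab2 and Lrpap1 cross 0 in every comparison.

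Because each slide held 1 Control array and at least 1 siRNA array, each difference could be read within a slide. Of 25 differences from the Control array of the same slide over the 5 members, 18 were below 0. They pool both siRNAs, reuse the Control arrays of slides 1 and 3 and cover genes that ran together. They are therefore not separate observations, and the share over all genes within slides was not counted. For siRNA 2, Cubn differed by -0.54 on slide 1 and by -1.72 on slide 3, and Amn by -0.46 and by -1.51. Both genes were lower on both slides, and since the siRNA 2 arrays were nearly equal, the gap between slides lay in the Control arrays. Lrp2 differed by 0.10 on slide 1 and by -0.49 on slide 3, Dab2 by -0.01 and by -0.97, and Lrpap1 by -0.10 and by -0.61.

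For siRNA 1 the direction itself depended on the slide. Cubn differed by 0.08 on slide 1, -0.76 on slide 2 and -0.57 on slide 3, and Amn by 0.08, -0.32 and -0.30. On slide 1 none of the 5 members was lower with siRNA 1 than in Control, and Lrp2 and Lrpap1 stood higher there, by 0.34 and 0.30. Dab2 differed by 0.00 on slide 1, by -0.60 on slide 2 and by 0.33 on slide 3. Between siRNA 2 and siRNA 1 on the same slide, Cubn differed by -0.62 on slide 1 and by -1.145 on slide 3 and Amn by -0.54 and by -1.21. With slide as a block in limma's fit, the siRNA 2 difference from Control was -1.22 for Cubn, -1.02 for Amn, -0.62 for Dab2, -0.41 for Lrpap1 and -0.31 for Lrp2, and none was called.

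**Figure D3:**
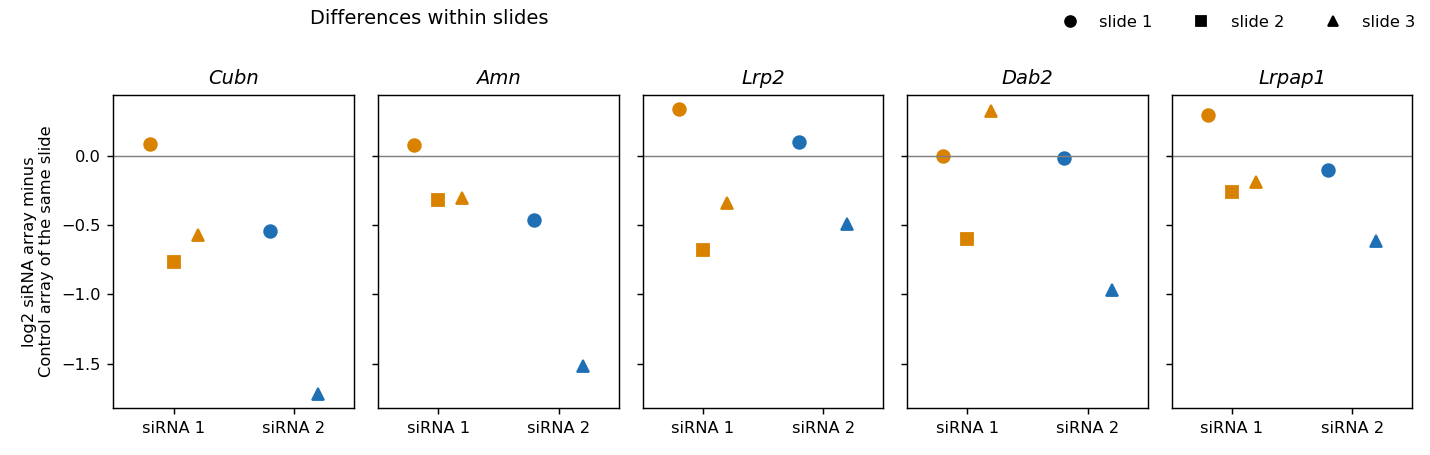
Log2 relative signal of each siRNA array minus that of the Control array on the same slide (vertical axis), by siRNA, with markers for the slide and each point standing for 1 pair of arrays. Both siRNA 2 points of Cubn (-0.54 and -1.72) and of Amn (-0.46 and -1.51) lie below 0, while the slide 1 points of siRNA 1 lie at or above 0 for all 5 members.

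Much of the range of Cubn and Amn lay among the Control arrays. The Control array of slide 1 was lower than the mean of the other Control arrays by a log2 difference of -1.05 for Cubn, -0.76 for Amn, -0.59 for Dab2, -0.58 for Lrp2 and -0.29 for Lrpap1. In siRNA 2 the same difference between slides was -0.01 for Cubn and 0.06 for Amn. Leaving out Control replicate 1 moved the siRNA 2 difference of Cubn to -1.59 and that of Amn to -1.26, and leaving out Control replicate 3 moved them to -0.996 and -0.76. The siRNA 2 difference of Lrp2 ranged more in proportion, from -0.46 without Control replicate 1 to -0.14 without Control replicate 3. That of Dab2 was -0.95 without the arrays of slide 1 and -0.41 without siRNA 2 replicate 2.

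Cubn and Amn, which encode the partners of the cubam receptor, tracked each other across arrays more closely than either tracked megalin. Over the 8 arrays Pearson's r between Cubn and Amn was 0.975 and Spearman's rho 0.952. Pearson's r was 0.944 over the 6 Control and siRNA 1 arrays alone and 0.996 without the 2 arrays farthest from the median of Cubn. Between Cubn and Lrp2 the Pearson r was 0.725 and rho 0.643, and the same 2 trimmings gave 0.828 and 0.20. Between Amn and Lrp2 r was 0.632, or 0.717 over the 6 Control and siRNA 1 arrays. Dab2 stood closer to Amn (r = 0.866) than to Lrp2 (r = 0.631), and Lrpap1 had 0.832 with Amn, 0.830 with Cubn and 0.789 with Lrp2. Over the 6 Control and siRNA 1 arrays the order for Lrpap1 differed, at 0.626 with Amn, 0.649 with Cubn and 0.920 with Lrp2. These coefficients describe 8 arrays that share slides and groups, and they carry no test.

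**Figure D4:**
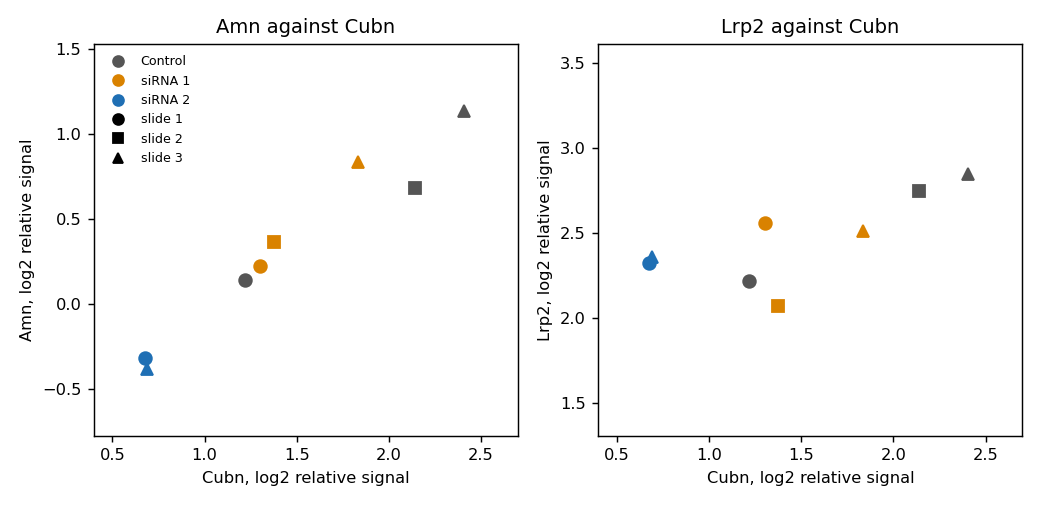
Log2 relative signal of Amn (left) and of Lrp2 (right) against that of Cubn, 1 point per array, with colour for the group and marker for the slide. The Amn points run along 1 line from the siRNA 2 arrays to Control 3 (r = 0.975), whereas the Lrp2 points scatter more widely (r = 0.725).

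A ratio taken within an array does not depend on how arrays were scaled, so the change of each member was also expressed relative to that of Lrp2, a comparison chosen after the values were seen. Relative to Lrp2 and to the Control mean, Cubn stood at -0.32, 0.07 and 0.24 in the Control arrays, at -0.57, 0.01 and -0.01 in the siRNA 1 arrays and at -0.96 and -0.99 in the siRNA 2 arrays. The corresponding siRNA 2 values of Amn were -0.69 and -0.79, below its lowest Control value of -0.12. The mean siRNA 2 difference relative to Lrp2 was -0.97 for Cubn, -0.74 for Amn, -0.31 for Dab2 and -0.09 for Lrpap1. Over the 10 splits of 2 against 3 arrays, the exact two-sided permutation p was taken as 2 times the smaller tail. It was 0.20 for Cubn, Amn and Dab2, the smallest that this rule can give with 10 splits, and 0.80 for Lrpap1. The design therefore cannot pass 0.05 here, and because Lrp2 was taken as the reference after its groups were seen to overlap, these values are a description only.

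Among 15555 other tested genes with a symbol, those most like each member were ranked by Pearson's r over the 8 arrays. For Cubn they were Mgat4e (0.978), Tfec (0.978), Amn (0.975), Tmem17 (0.973) and Sh3tc2 (0.970), so that its receptor partner ranked 3. For Amn they included H2bu2 (0.988), Foxa2, an endoderm transcription factor (0.988), Gprc6a (0.986) and Sfta2 (0.985), and Cubn ranked 12. For Lrp2 they were Fabp3, a fatty acid carrier (0.956), Lama1, a laminin chain of basement membrane (0.944), Lmna (0.941), Slc22a13b (0.937) and 4933439C10Rik (0.932). Lrpap1, its chaperone, ranked 101 for Lrp2, Cubn ranked 251 and Amn 614. The 5 most like Dab2 were led by Ang4 (0.979) and Fgf10 (0.953) and the 5 most like Lrpap1 by Abhd5 (0.968) and Tex264 (0.965). With 8 arrays, high coefficients arise for many genes, and the ranks are given as a description.

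The rest of the uptake pathway gave no called gene, as limma called 0 of all 22422 genes tested. It was read through 5 lists, which held 80 genes, of which 74 were tested. With siRNA 2 against Control, 40 of the 74 were higher and 34 lower, with a median log2 difference of 0.027. In limma's fit 3 had an unadjusted p under 0.05, where 1.97% of all genes were lower and 1.38% higher at that level. With siRNA 1, 38 were higher and 36 lower (median 0.0037). In limma's fit 1 had an unadjusted p under 0.05, where 0.901% of all genes were lower and 2.6% higher. The median of all 22422 genes was -0.00085 and 0.02 in these comparisons. The 5 members had medians of -0.58 and -0.18.

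Receptors related to megalin stood near 0. Of 13 tested members of the LDL receptor family, 5 were higher and 8 lower with siRNA 2, with a median of -0.07. That median turned to 0.15 without the arrays of slide 1, 0.10 without siRNA 2 replicate 1 and 0.08 without Control replicate 1. Vldlr, the VLDL receptor, differed by -0.11, Lrp1, a broad scavenger receptor, by 0.10, and Lrp8, the reelin and ApoE receptor, by -0.07. Among 21 adaptors and coat proteins, 13 were higher and 8 lower (median 0.05). Gipc1, a megalin-binding scaffold, stood at -0.10, Cltc, the clathrin heavy chain, at 0.06 and Dnm2, the dynamin that cuts vesicles free, at 0.13. The lowest was Myo6, the motor that carries coated vesicles inward, at -0.45 ± 0.29 (SE).

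Genes that act after internalisation were also close to Control. In the endosome and lysosome list, 10 of 21 were higher and 11 lower with siRNA 2 (median -0.0038). Clcn5 and Ocrl, whose human counterparts are mutated in proximal tubule disorders, stood at -0.14 and 0.07. Rab11a, a recycling GTPase, was at -0.09 and Snx17, a sorting nexin that recycles LDL receptor family members, at -0.09. Of 10 genes of vitamin B12 handling, 8 were higher and 2 lower (median 0.04), and Cd320, the cell-surface receptor for transcobalamin, stood at -0.09. Limma called 0 in each of these lists.

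Ligands of the receptors held the wider differences under siRNA 2. Of the 74 genes 71 lay within 0.5 log2 units of Control, and the other 3 were the ligands Ttr, Gc and Apob. Of 14 ligands 9 were tested, and the other 5, among them Apoa1 and the intrinsic factor gene Cblif, were not well above background on all arrays of any group. In the 9, 4 were higher and 5 lower (median -0.04), with values from -1.82 for Ttr, the transthyretin gene, to 0.20. Gc, the vitamin D-binding protein that megalin and cubilin take up, stood at -1.60 ± 0.23 (SE, n = 2 and 3), with limma's adjusted p of 0.645, and at -0.43 under normexp background correction. Tcn2, transcobalamin, differed by -0.28, Rbp4, the retinol carrier, by -0.04 and Apoe by 0.03. With siRNA 1, Ttr stood at 0.89, on the other side of Control, Gc at 0.25, Apob at -0.11, Tcn2 at 0.08, Rbp4 at 0.11 and Apoe at 0.14, and limma called none. Apob, the apolipoprotein of large lipid particles, stood at -1.11 with siRNA 2 and at -0.67 under normexp, and Ttr is also among the visceral endoderm markers.

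**Figure D5:**
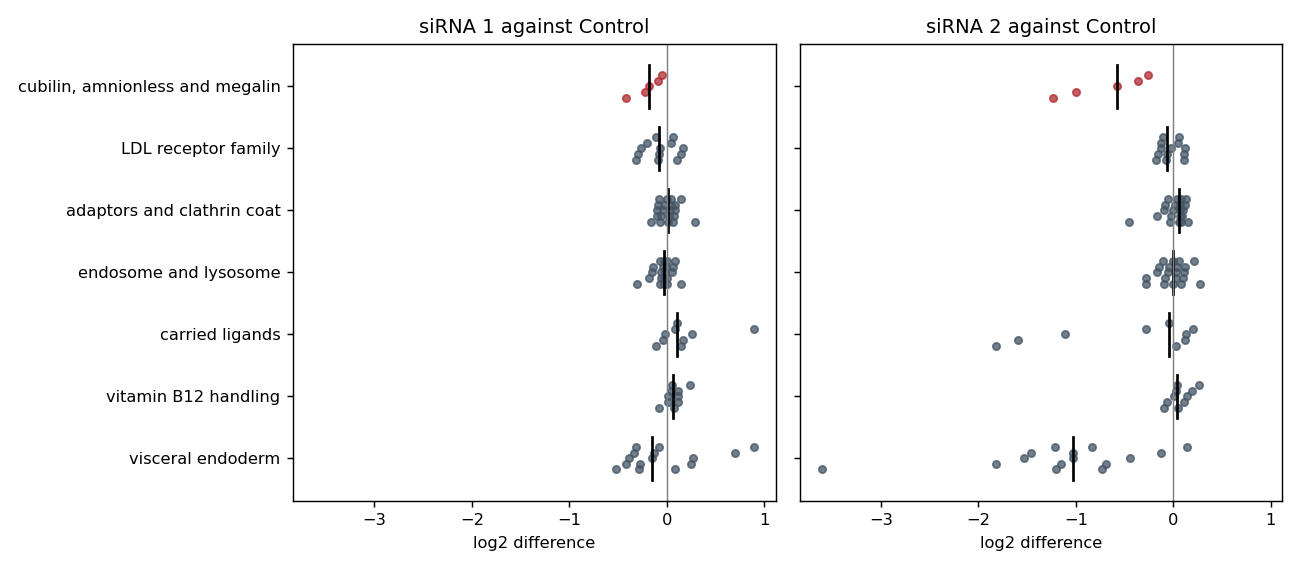
Log2 difference from Control of each tested gene (points) by list, for siRNA 1 (left) and siRNA 2 (right) on the same axis, with a black line at each list's median. With siRNA 2 the medians of the 5 members (-0.58) and of the visceral endoderm markers (-1.03) lie left of 0, and those of the other 5 lists plotted lie between -0.07 and 0.05; the lowest point, Afp, was close to background on both siRNA 2 arrays, so its value has no measured size.

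Visceral endoderm markers stood lowest in mean on the siRNA 2 arrays, as Cubn and Amn did. Primitive streak markers did so too, at -0.85 and -0.83 relative to the Control mean, with siRNA 1 replicate 1 next at -0.76. For parietal endoderm markers the siRNA 2 arrays were at -0.68 and -0.84, and siRNA 1 replicate 3 lay between them at -0.72. Of 15 tested visceral endoderm markers, 14 were lower with siRNA 2, against 50.2% of all genes. Their median was -1.03 and ranged from -1.56 with array weights to -0.64 under normexp. Limma called 0, and at an unadjusted p under 0.05 in its fit 11 of the 15 were lower, against 1.97% of all genes. The mean over this list, relative to the Control mean, ran from -0.36 to 0.33 on the Control arrays, from -0.32 to 0.38 on the siRNA 1 arrays and from -1.18 to -1.05 on the siRNA 2 arrays. Apoa1 was not tested and Afp was not well above background in siRNA 2, while the other 14 were well above it on all 8 arrays. For the 5 receptor genes the same mean ran from -0.44 to 0.32, from -0.41 to 0.11 and from -0.74 to -0.64.

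Parietal endoderm markers belong to the layer that lays down the outer basement membrane. They were lower with siRNA 2 in 13 of 13 genes, against 50.2% of all genes, at a median of -0.66. At an unadjusted p under 0.05 in limma's fit 4 of the 13 were lower and 0 higher, against 1.97% of all genes lower. The median was -0.33 if Control replicate 3 was left out and -1.04 if the arrays of slide 1 were. Their mean ran from -0.48 to 0.62 on the Control arrays, from -0.72 to -0.17 on the siRNA 1 arrays and from -0.84 to -0.68 on the siRNA 2 arrays. The siRNA 1 and siRNA 2 arrays thus overlapped. With siRNA 1, 12 of the 13 were lower, against 41.8% of all genes. Their siRNA 1 median was -0.36, or -0.07 without Control replicate 3. Primitive streak and mesoderm markers were lower with siRNA 2 in 7 of 8 tested, at a median of -0.89 that was -0.56 under normexp. In limma's fit 5 of the 8 were lower and 0 higher at an unadjusted p under 0.05, against 1.97% of all genes lower. With siRNA 1, 6 of the 8 were lower, at a median of -0.41 that turned to 0.11 without the arrays of slide 1. Their mean ran from -0.36 to 0.33 on the Control arrays, with Control 1 the highest. It ran from -0.76 to -0.13 on the siRNA 1 arrays and from -0.85 to -0.83 on the siRNA 2 arrays. Naive pluripotency markers were higher in 10 of 12, at a median of 0.34, and the median was 0.02 if the arrays of slide 1 were left out. With siRNA 1 they were higher in 11 of 12, at a median of 0.54 that was 0.12 without the arrays of slide 1. In 9 of 12 siRNA 2 stood below siRNA 1, as it did in 57.6% of all genes. The median of that difference was -0.24. It ranged from -0.40 without siRNA 1 replicate 2 to 0.06 without siRNA 1 replicate 1. Core pluripotency genes had a median of 0.01 and fibroblast genes of -0.09. Limma called 0 genes in each of these lists, and the part of any cell layer in the receptor differences was not tested.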

How the data were processed

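Agilent 1-colour arrays, 8 in all and grouped by their titles, measured total RNA from embryoid bodies of R1 cells. The deposited scanner files hold intensity values that, per the file headers, came from Feature Extraction 10.7.3.1 and are already background-corrected and not scaled between arrays. The 0 or 1 spot flags (well above background, outlier) are other values of those deposited files, and 0 spots were saturated. A deposited table of log2 values, centred per probe by the authors, served as an alternative. In it the column of Control 2 matched the scanner file of Control 3 and the reverse (r = 0.9998), which leaves the unblocked fits unchanged. RMA appears in the submitters' processing notes without a stated role.

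Control and outlier spots were left out and log2 spot values averaged per probe. Accessions were matched to symbols through a RefSeq table of GRCm38.p6 for 26424 of 39429 probes, and the array design used mm9. A gene was its probe with the highest mean and 22422 genes were tested, those whose probe exceeded background clearly on all arrays of some group. All 5 members passed in all 3 groups. Limma 3.58.1 in R 4.3.3 fitted the 3 groups together (5 residual and 2.09 prior degrees of freedom) after a test on simulated data. The number of arrays limits the precision. Alternatives covered normalization, background, filters, probe choice, weights, variance model, blocks by replicate number and slide, and left-out arrays.

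The named genes are the 5 members, pathway genes listed by role, and the 5 genes most like each member. A few genes that this rule names are not reported here. Ttr, Apob, Afp, Pou5f1, Sox2 and Cblif were named in addition after their values were seen. Members, lists and rules were chosen with earlier results of these data known. Tables and plots were made in Python 3.11.15 (pandas 2.3.3, numpy 2.4.6, scipy 1.17.1, matplotlib 3.10.9).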

Additional observations from a re-analysis of the deposited data

Results flagged for a closer look

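Gc, the vitamin D-binding protein, and Ttr, transthyretin, both ligands of the receptors, stood out because the siRNA 1 and siRNA 2 arrays lay on opposite sides of the Control mean. For Gc the siRNA 1 arrays were above it by log2 differences of 0.35, 0.06 and 0.35, and the siRNA 2 arrays were at -1.72 and -1.47, while the Control arrays were at 0.11, 0.32 and -0.44. Setting siRNA 2 against siRNA 1 gave -1.85 for Gc, and limma's adjusted p over all genes was 0.544, which did not pass. That value was -0.56 under normexp background correction. For Ttr the siRNA 1 arrays were at 0.098, 1.88 and 0.71, the siRNA 2 arrays at -1.71 and -1.93 and the Control arrays at -0.46, 0.20 and 0.26. The difference between the siRNAs was -2.72 for Ttr, or -1.92 under normexp, with limma's adjusted p of 0.924. Afp, a visceral endoderm marker, lay in the same way, but it was not well above background on the siRNA 2 arrays. The groups hold 3 arrays or fewer, so no search for single outlying arrays was made.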

How the results depend on the processing

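Of 435 member values under alternatives, 424 kept their sign and none was called by limma. Part of these could not change sign. The filters, the variance model and fitting only the groups compared leave a member's difference itself unchanged. So does leaving out an array of a group outside the comparison. The sign changed in 11. Lrp2 in siRNA 2 against siRNA 1 turned to 0.038 under median scaling, 0.020 with array weights and 0.069 without the arrays of slide 1, and ranged from -0.19 to 0.051 with 1 array left out. With siRNA 1 against Control, leaving out 1 array gave ranges from -0.44 to 0.060 for Amn, -0.41 to 0.077 for Dab2 and -0.15 to 0.054 for Lrpap1, the highest coming without Control replicate 3 for Amn and without siRNA 1 replicate 3 for the others. The cause was not tested. With siRNA 2 against Control the same ranges were -1.59 to -0.996 for Cubn and -1.26 to -0.76 for Amn, and over all alternatives limma's adjusted p ranged from 0.245 to 0.99997 for Cubn and from 0.256 to 0.99997 for Amn. Limma called 0 genes in all 4 comparisons, with 804, 785, 751 and 754 at an unadjusted p under 0.05 for both siRNAs, siRNA 1, siRNA 2 and siRNA 2 against siRNA 1. Array weights called 8 for both siRNAs, the fit of only the groups compared called 1 for siRNA 2 against siRNA 1, and leaving out 1 array called from 0 to 1 for siRNA 2. Fitting only the groups compared adds nothing for both siRNAs, since all groups enter. With the replicate number as a block, siRNA 2 differed from Control by -1.149 for Cubn and -0.91 for Amn, and 0 genes were called. By the scanner files' names, deviations of same-numbered arrays correlated between -0.04 and 0.70, so the numbers were not taken to pair the arrays. The deposited table exchanges Control 2 and Control 3, and which naming is right is not known. With the table's names the numbers coincide with the slides, whose arrays correlated between 0.044 and 0.70, and the block is then the slide block (-1.22 for Cubn, -1.02 for Amn, 0 genes called).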
